A study of Mus musculus with 14 samples.

Results

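The 10 genes described here encode transcription factors of the luminal mammary lineage: Elf5, Gata3, Foxa1, Ehf, Elf3, Sox9, Stat5a, Stat5b, Grhl2 and Tfap2c. They were chosen by name, and every probe set whose platform annotation names exactly 1 of these symbols was taken. That gave 21 probe sets of the 22690 on the array, and 10 of the 12394 genes named by a single-gene probe set. Elf3, Gata3 and Foxa1 had 1 probe set each, Elf5, Sox9, Stat5a and Stat5b had 2, Ehf and Tfap2c had 3, and Grhl2 had 4.

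The study followed the mammary gland of untreated female CD1 mice, an outbred stock, through puberty. Whole inguinal glands (number 4) with the lymph nodes cut away were taken at 3, 4, 5, 6 and 7 weeks of age, and total RNA was hybridised to Affymetrix arrays. Each age had 3 arrays, lettered A to C, except 5wk, which had 2. Every array was a pool of RNA from 3 or more mice, so that the p-values given here measure the spread between pools. All 5 groups shared strain, sex and tissue and were labelled by age, and no cell type was sorted.

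The mammary epithelium is a bilayer of luminal cells, which face the lumen, and basal myoepithelial cells around them. Luminal cells fall into hormone-sensing cells, in which Foxa1 and Gata3 work with the oestrogen receptor, and progenitors of the milk-secreting alveolar cells, in which Elf5 and Stat5 drive the response to prolactin. In puberty, ducts grow out from the nipple into a pad of fat, and the epithelium takes up a growing part of the gland.

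The deposited value of a probe set is a ratio to that probe set's own median over the 14 arrays, so 1 marks the middle of its own range and no level can be compared between probe sets or genes. Changes are log2 differences between age means with the standard error (SE) of a single limma model over all 14 arrays, and a change is called at a Benjamini-Hochberg adjusted p under 0.05 over the 18665 probe sets tested. In whole tissue, fewer cells of a type and less RNA per cell cannot be told apart.

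The arrays differed in ways that ran with age. The luminal and pan-epithelial marker genes Cdh1, Epcam, Krt7, Krt8, Krt18 and Krt19 had a mean log2 ratio of -2.03 at 3wk and -1.13 at 4wk. Both lay below the 0.16, 0.47 and 0.18 of the 3 later ages. Of the 6 brown adipocyte markers tested, 5 fell from 3wk to 7wk, and their mean log2 ratio lay between 1.41 and 2.18 on the 3wk and 4wk arrays and between -1.02 and -0.02 on the others. The 5' to 3' log2 ratio of the pyruvate carboxylase control probe sets, a sign of RNA length, averaged -2.37 at 6wk and 0.82 at 7wk, with the other ages between. As each control probe set was also divided by its own median, such values compare arrays and do not give the 5' to 3' signal itself. The mean of 18 hybridisation control probe sets was lowest at 7wk, at -1.21 ± 0.58 (SD, n = 3). Array 3wk A stood apart in its skeletal muscle markers, whose mean log2 ratio was 2.18 there and between -0.97 and 0.60 on the other 13 arrays, and it had the lowest epithelial marker mean, -2.74. The part of each of these in the results below was not tested beyond the values given beside them.

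Most of the factors rose between the youngest and the oldest glands. From 3wk to 7wk, 14 of the 21 probe sets rose and none fell, covering Elf5, Gata3, Foxa1, Ehf, Sox9, Tfap2c and, on 2 of its 4 probe sets, Grhl2. Over all probe sets tested, 5.89% rose in that comparison. The median log2 difference was 1.71 over the 21 probe sets and 0.08 over all those tested. Elf3, Stat5a and Stat5b had no probe set called. With the mean of the hybridisation controls as a covariate, 7 of the 14 calls were lost: that of Gata3 (log2 difference 2.57, adjusted p = 0.0906), Elf5 1419556_at, Ehf 1419475_a_at and 1451375_at, Sox9 1424950_at, Grhl2 1452643_at and Tfap2c 1418147_at. Their adjusted p ran up to 0.149, and the Grhl2 difference went from 1.41 to 0.745.

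The 6wk against 3wk comparison, which shares the 3wk arrays with the one before, called 14 of the 21 probe sets higher, against 9.0% of all probe sets. Here the second Stat5b probe set was called and the Grhl2 probe set 1452643_at was not. An F test over the 5 ages called 14 of the 21, against 10.1% of all. Without the filter on low signal both called 13 of the 21. Of all 22626 probe sets, 1372 were then higher at 6wk and 1482 were called in the F test. Leaving out 1 array at a time gave between 13 and 16 called probe sets for 7wk against 3wk and between 12 and 13 for 6wk against 3wk. As age and the pyruvate carboxylase ratio moved together, a fit with that ratio as a covariate, added after the data were seen, called 5 of the 21 for 7wk against 3wk (both Elf5 probe sets, Gata3, Foxa1 and Tfap2c 1448977_at). In limma with that covariate, 6wk against 3wk called 0 of 21 and 0 of all 18665 probe sets, of which 1626 had an unadjusted p under 0.05. The fitted differences of the 14 probe sets stayed above 0, from 0.64 for Stat5b 1422103_a_at to 7.21 for Sox9 1424950_at. They were smaller than without the covariate for Foxa1 (1.54 against 2.57), close for Elf5 1419555_at (3.15 against 3.22) and larger for Ehf 1419475_a_at (6.01 against 4.09).

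**Figure D1:**
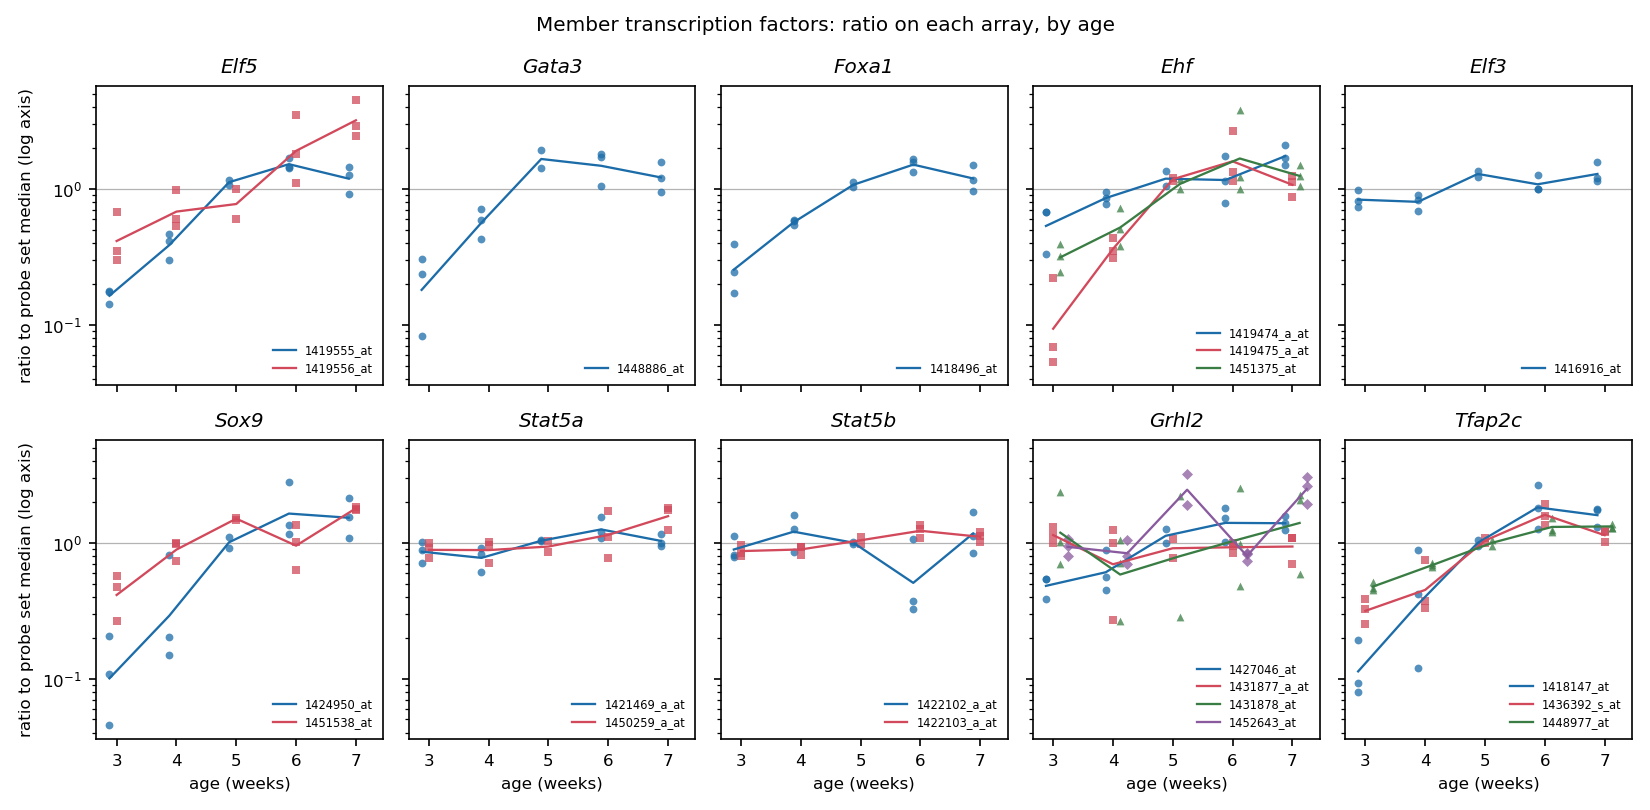
Deposited ratio, scaled to the median of the probe set (log axis), against age in weeks for the 10 genes, 1 point per array and lines through the geometric mean of each age, with colours for the probe sets of a gene. Elf5, Gata3, Foxa1, Ehf, Sox9 and Tfap2c climb from below 1 at 3wk, where Sox9 1424950_at reaches 0.0451, while Elf3 and Stat5a stay nearer 1, Stat5b 1422102_a_at drops to 0.327 on 6wk B and the 4 Grhl2 probe sets part.

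The separation of the ages was visible array by array. For 17 of the 21 probe sets every 7wk array lay above every 3wk array, which was so for 18.4% of all probe sets. For 12 of the 21, from 9 of the 10 genes, every array of 5wk, 6wk and 7wk lay above every array of 3wk and 4wk, which held for 3.23% of all. Both shares are of probe sets that passed the filter. Among the 17 were the probe sets named above that passed it only through later arrays, and among the 12 was Sox9 1424950_at. Those 12 included the single probe sets of Gata3, Foxa1 and Elf3, all 3 of Tfap2c and 1 of Stat5b, and Stat5a was the gene with none. The age with the highest mean was 6wk for 10 probe sets, 7wk for 7, 5wk for 2, and 3wk or 4wk for 1 each.

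Neighbouring ages gave few calls. From 3wk to 4wk only Elf5 1419555_at was called, with a log2 rise of 1.24 (SE 0.20, adjusted p = 0.0454 by limma), against 0.139% of all probe sets. That call held in 1 of the 14 fits that left out an array, the one without 7wk C, and the adjusted p ranged from 0.043 to 0.186. From 4wk to 5wk Elf5 1419555_at rose by 1.54 (SE 0.23, adjusted p = 0.0182) and Grhl2 1452643_at by 1.55 (SE 0.27, adjusted p = 0.0303), against 0.311% of all. The Elf5 call was lost without 4wk B, 5wk A or 5wk B, at an adjusted p of up to 0.0731. From 5wk to 6wk and from 6wk to 7wk only Grhl2 1452643_at was called, as described below with its level.

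The promoters of Elf5, Gata3 and Foxa1, whose RNAs rose together, are printed first to show the sequence at annotated start sites of each gene. They come from RefSeq (GRCm38.p6) and run from 250 bases before the start site to 50 after it, 5′ to 3′ in the direction of the gene, with motif matches in capitals on either strand.
Elf5 first promoter, chr2:103411848-103412147, plus strand: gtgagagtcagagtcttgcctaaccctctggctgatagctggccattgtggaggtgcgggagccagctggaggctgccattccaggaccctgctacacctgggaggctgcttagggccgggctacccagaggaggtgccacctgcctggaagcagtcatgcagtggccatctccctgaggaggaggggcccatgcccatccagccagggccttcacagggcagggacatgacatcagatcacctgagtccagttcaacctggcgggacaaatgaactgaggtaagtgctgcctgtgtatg
Elf5 second promoter, chr2:103423818-103424117, plus strand: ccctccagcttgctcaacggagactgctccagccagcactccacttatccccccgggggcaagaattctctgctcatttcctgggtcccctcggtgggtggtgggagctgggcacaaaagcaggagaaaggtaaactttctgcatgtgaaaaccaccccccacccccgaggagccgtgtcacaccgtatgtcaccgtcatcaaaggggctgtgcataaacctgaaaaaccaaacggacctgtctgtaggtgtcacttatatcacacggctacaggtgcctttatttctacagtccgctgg
Gata3 promoter, chr2:9878551-9878850, minus strand: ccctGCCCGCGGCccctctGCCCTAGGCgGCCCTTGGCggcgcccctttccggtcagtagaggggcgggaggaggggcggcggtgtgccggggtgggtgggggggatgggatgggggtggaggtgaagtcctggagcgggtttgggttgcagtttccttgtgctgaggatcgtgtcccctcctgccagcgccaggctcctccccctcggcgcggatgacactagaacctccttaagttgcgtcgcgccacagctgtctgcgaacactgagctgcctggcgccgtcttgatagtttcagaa
Foxa1 promoter, chr12:57546062-57546361, minus strand: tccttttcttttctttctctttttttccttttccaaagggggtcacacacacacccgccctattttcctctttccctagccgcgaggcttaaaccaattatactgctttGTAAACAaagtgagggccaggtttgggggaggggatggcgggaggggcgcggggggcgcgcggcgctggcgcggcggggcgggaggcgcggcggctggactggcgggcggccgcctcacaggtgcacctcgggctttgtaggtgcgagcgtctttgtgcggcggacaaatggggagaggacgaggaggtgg

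A search of both strands used AGGAAG for ETS factors (Elf5, Ehf and Elf3 belong to them), AGATAA for GATA factors, TGTTTAC for forkhead factors, TTCNNNGAA for STAT factors, GCCNNNGGC for AP-2 factors (Tfap2c), AACAAT for SOX factors and AACNGGTT for grainyhead factors. In that order 35.4%, 11.2%, 3.65%, 8.3%, 16.6%, 10.7% and 2.09% of the 32851 promoters of the same length hold at least 1 match. The Gata3 promoter has 3 AP-2 matches, beginning at -246, -231 and -221 from the start site, and the Foxa1 promoter has 1 forkhead match at -141. Neither Elf5 promoter has a match to any of the 7, nor does the Elf3 promoter in the table. A match describes letters and does not show that a factor binds there. The table held 9 promoters of 6 of the 10 genes, and the others are not printed. The start sites of the Gata3, Foxa1 and second Elf5 promoters lie inside the RefSeq span of the gene.

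Elf5 is an ETS factor that alveolar progenitors need to make milk-secreting cells. Its probe set 1419555_at read 0.175, 0.177 and 0.142 at 3wk (arrays in the order A, B, C, here and below) and 0.416, 0.299 and 0.463 at 4wk. The values were 1.17 and 1.08 at 5wk, 1.43, 1.46 and 1.70 at 6wk, and 1.27, 1.45 and 0.922 at 7wk. The 3wk arrays were the lowest, the 4wk arrays stood apart between them and the rest, and the 5wk, 6wk and 7wk arrays were all higher. From 3wk to 7wk it rose by 2.86 on the log2 scale (SE 0.20, adjusted p = 4.29e-05), a fold of 7.28. Among the 21 probe sets this was the smallest adjusted p of that comparison.

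The other Elf5 probe set, 1419556_at, reached its highest values later. Its mean ratio was 0.442 ± 0.202 (SD, n = 3) at 3wk and 0.802 ± 0.291 (n = 2) at 5wk. The 6wk mean was 2.14 ± 1.25 and the 7wk mean 3.32 ± 1.1. All 6wk and 7wk arrays exceeded the 4wk arrays, but the 5wk arrays, at 1.01 and 0.597, lay within the 4wk range or just above it. It rose by 2.95 from 3wk to 7wk (SE 0.45, adjusted p = 0.00285). The correlation between the Elf5 probe sets over the 14 arrays was 0.791.

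Ehf, an ETS factor of epithelial cells and a close relative of Elf5, lies near it on chromosome 2. RefSeq places 2 genes between them, and 0 of these encode a protein. Its probe set 1419475_a_at had ratios of 0.223, 0.0533 and 0.069 at 3wk, 0.308, 0.352 and 0.439 at 4wk and 1.21 and 1.15 at 5wk. The later arrays read 1.34, 1.14 and 2.68 at 6wk and 1.12, 0.877 and 1.26 at 7wk. As for Elf5, the 3wk and 4wk groups did not overlap with each other or with any later array, and 6wk C was the highest. The rise from 3wk to 7wk was 3.52 (SE 0.47, adjusted p = 0.00126).

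The other Ehf probe sets rose less. For 1451375_at the log2 difference was 1.99 (SE 0.43, adjusted p = 0.0171), lost without 3wk A, 7wk A or 7wk C, with an adjusted p of up to 0.0636. Its value on 6wk C, 3.85, was more than that on the other 2 arrays of that age, 1.23 and 1.003. For 1419474_a_at the difference was 1.71 (SE 0.33, adjusted p = 0.00886), and its calls in the F test and for 6wk against 3wk (adjusted p = 0.0426) each held in 2 of the 14 fits that left out an array, with an adjusted p of up to 0.134. This probe set had a low signal: on the scale of an array's smallest signal unit its level ran from 29 to 284 units and reached 200, the level used as a filter, on 3 arrays. It therefore passed the filter through those arrays alone, all of 6wk or 7wk and among its high values, and its adjusted p values rest on that. Without the filter it was not called by limma in the F test (adjusted p = 0.0569) or for 6wk against 3wk (adjusted p = 0.0593).

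Elf3, an ETS factor found in many epithelia, changed least of the ETS members. Its ratios were 0.81, 0.738 and 0.976 at 3wk and 0.837, 0.688 and 0.905 at 4wk. They were 1.23 and 1.36 at 5wk, 0.995, 1.005 and 1.27 at 6wk, and 1.58, 1.14 and 1.20 at 7wk. The early and late arrays did not overlap, but 6wk A, at 0.995, stood close to 3wk C, at 0.976. The log2 difference from 3wk to 7wk was 0.63 (SE 0.18), with an adjusted p of 0.0513 per probe set and 0.0436 in the fit of genes, in which 7.05% of genes rose and 2.93% fell. In the F test over ages, which called 10.7% of genes, the adjusted p of Elf3 was 0.0509.

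Gata3, a zinc finger factor that luminal cells need to form and to stay differentiated, was among the most changed. Its 3wk ratios were 0.0825, 0.305 and 0.235, and its 4wk ratios 0.426, 0.595 and 0.712. At 5wk they were 1.95 and 1.42, at 6wk 1.72, 1.05 and 1.80, and at 7wk 1.59, 1.20 and 0.948. The lowest value lay on 3wk A, the array with the lowest epithelial marker mean, and 5wk A was the highest. Gata3 rose by 2.75 from 3wk to 7wk (SE 0.43, adjusted p = 0.0032) and by 3.04 from 3wk to 6wk (SE 0.43, adjusted p = 0.00141).

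Foxa1, a forkhead factor that opens chromatin for the oestrogen receptor, had its highest mean at 6wk, where that of Gata3 was at 5wk. Its ratios were 0.171, 0.393 and 0.247 at 3wk, 0.539, 0.59 and 0.579 at 4wk and 1.03 and 1.12 at 5wk. They were 1.57, 1.66 and 1.33 at 6wk and 1.52, 0.968 and 1.17 at 7wk. The 4wk arrays lay above the 3wk arrays and below all later ones, and 7wk B came closest to them. From 3wk to 7wk Foxa1 rose by 2.23 (SE 0.26, adjusted p = 0.000602). Across the 14 arrays the correlation of Gata3 and Foxa1 was 0.944, the highest of the 45 pairs of members, as a description of arrays that share their age differences.

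Sox9, a SOX factor of luminal progenitors and stem cells, had probe sets with different late courses. On 1424950_at the 3wk arrays read 0.108, 0.0451 and 0.207 and the 4wk arrays 0.203, 0.812 and 0.148. The 5wk arrays read 1.105 and 0.919, the 6wk arrays 1.16, 1.36 and 2.81, and the 7wk arrays 2.15, 1.08 and 1.54. The 4wk arrays were split, with 4wk B near the 5wk arrays and the other 2 near 3wk. The rise from 3wk to 7wk was 3.93 (SE 0.66, adjusted p = 0.00478), but the level at the low end was 9 signal units, so the fold depends on the background there. The level reached 200 units, the level used as a filter, on 7 arrays, all of 5wk or later. This probe set thus passed the filter only through ages at which it was high, and its adjusted p values come from that filtered set. Without the filter it was called in the F test over ages (adjusted p = 0.015).

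On the brighter Sox9 probe set, 1451538_at, the mean went from 0.433 ± 0.155 at 3wk to 1.79 ± 0.0474 at 7wk, a log2 rise of 2.12 (SE 0.30, adjusted p = 0.00199). Its 7wk arrays, between 1.75 and 1.84, were the highest of all. At 6wk its ratios were 0.625, 1.01 and 1.36, lower than both 5wk arrays. The rise from 3wk to 6wk was 1.21 (SE 0.30, adjusted p = 0.0246) and was lost without 3wk A, 6wk B or 6wk C, at an adjusted p of up to 0.0825.

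Tfap2c, an AP-2 factor of luminal cells, was the gene whose 3 probe sets matched best, with correlations of 0.909 to 0.942. On 1448977_at the ratios were 0.463, 0.51 and 0.451 at 3wk, 0.705, 0.666 and 0.683 at 4wk and 0.951 and 1.05 at 5wk. They were 1.19, 1.24 and 1.51 at 6wk and 1.29, 1.38 and 1.28 at 7wk. Each of 3wk, 4wk, 5wk and the pair of later ages stood clear of the others. This probe set rose by 1.48 (SE 0.12, adjusted p = 7.85e-05) from 3wk to 7wk.

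The other Tfap2c probe sets rose by 1.85 (1436392_s_at, SE 0.28, adjusted p = 0.00255) and 3.82 (1418147_at, SE 0.60, adjusted p = 0.00314). The size of the change thus ran from 2.78-fold to 14.1-fold for 1 gene, although the direction was the same. The level of 1418147_at was low, from 22 to 1083 signal units with 9 of 14 arrays at 200 or more, and its 4wk arrays were scattered at 0.119, 0.418 and 0.879.

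**Figure D2:**
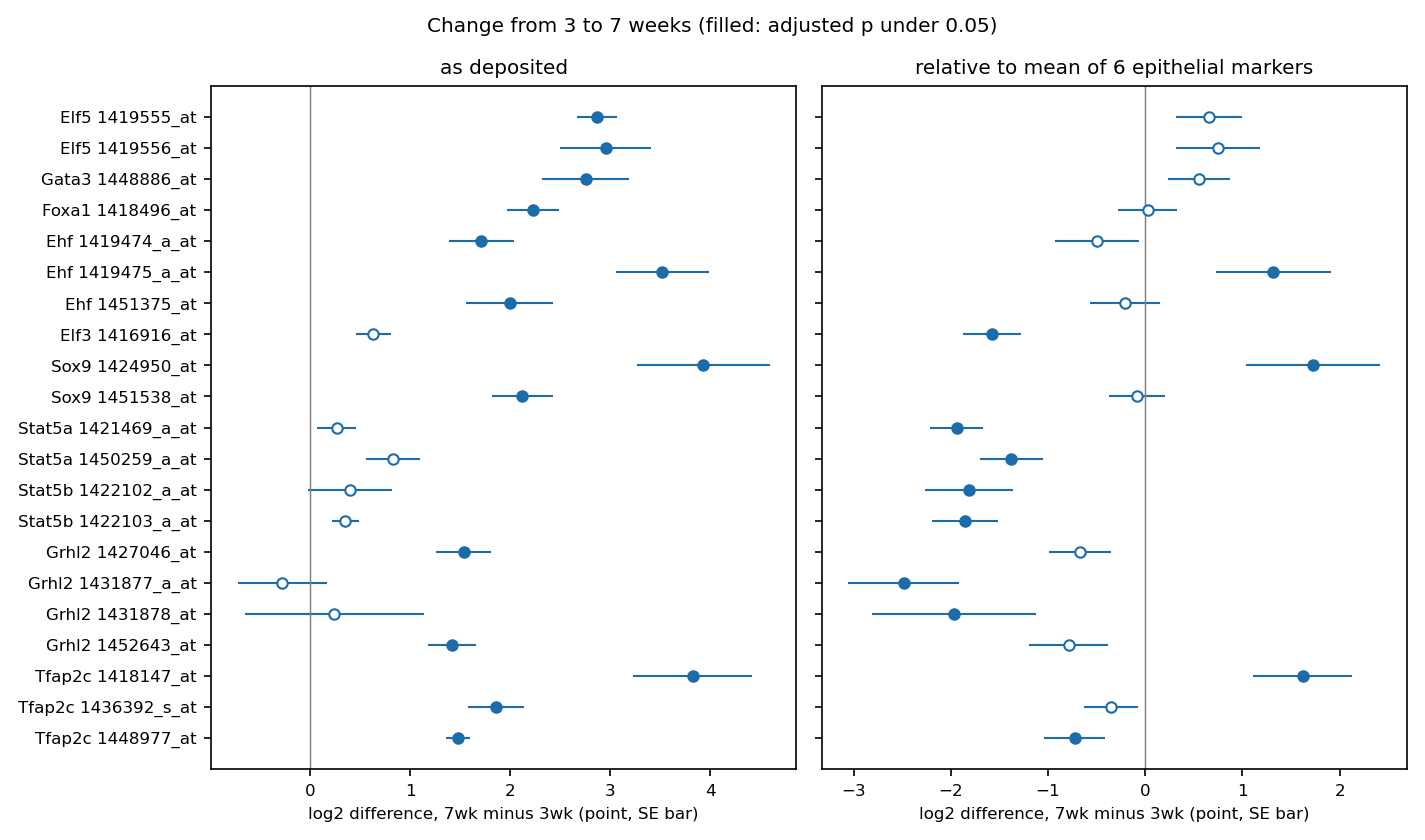
Log2 difference of 7wk minus 3wk for all 21 probe sets, as points with SE bars and filled where the adjusted p is under 0.05, for the deposited ratios (left) and after the mean log2 ratio of 6 epithelial marker genes was subtracted on each array (right). On the left 14 probe sets are filled and lie above 0, and on the right 3 are filled above 0 and 8 below it.

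Grhl2, a grainyhead factor that maintains cell junction genes in epithelia, differed by probe set. On 1427046_at the ratios were 0.385, 0.539 and 0.537 at 3wk, 0.889, 0.45 and 0.557 at 4wk and 0.996 and 1.27 at 5wk. They were 1.004, 1.51 and 1.81 at 6wk and 1.56, 1.24 and 1.39 at 7wk. All later arrays exceeded the 3wk and 4wk arrays, with 5wk A, 6wk A and 4wk A close together. It rose by 1.53 from 3wk to 7wk (SE 0.28, adjusted p = 0.00687).

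Probe set 1452643_at was high at 5wk and 7wk and low at 3wk, 4wk and 6wk. Its mean ratio was 2.54 ± 0.925 (n = 2) at 5wk and 2.53 ± 0.57 at 7wk. The means of the low ages were 0.94 ± 0.137 (3wk), 0.849 ± 0.182 (4wk) and 0.801 ± 0.0552 (6wk). From 5wk to 6wk it fell by 1.62 (SE 0.27, adjusted p = 0.039), against 0.236% of all probe sets, and from 6wk to 7wk it rose by 1.64 (SE 0.24, adjusted p = 0.0114), against 0.755% of all. The call for 5wk to 6wk held in 3 of the 14 fits that left out an array, with an adjusted p of up to 0.169, and that for 6wk to 7wk in all but the one without 7wk A, at 0.0516. The call for 4wk to 5wk held in 9 of 14 and was lost without any 1 of 4wk A, 4wk B, 4wk C, 5wk A or 7wk C, at up to 0.138.

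The signal of that probe set was near the bottom of the range. Its level ran from 39 to 280 signal units and reached 200 on 2 arrays, so it too passed the filter only through its high arrays and its adjusted p values rest on that. A filter on the mean level over all arrays, added after the data were seen, removed it, and then no member was called for 6wk against 5wk or for 7wk against 6wk in limma, where 1839 and 2462 of all probe sets had an unadjusted p under 0.05. Under that filter 18 of the 21 probe sets were tested, and 13 were called in the F test, 13 for 6wk against 3wk and 13 for 7wk against 3wk. The pyruvate carboxylase ratio was -1.25 and -0.66 on the 5wk arrays, between -2.78 and -1.81 on the 6wk arrays and between 0.76 and 0.90 on the 7wk arrays. With it as a covariate, the differences of 1452643_at were 1.57 (5wk against 4wk), -1.60 (6wk against 5wk) and 1.60 (7wk against 6wk). Their adjusted p values in limma were 0.266, 0.751 and 0.999, and each of these comparisons then called 0 of all 18665 probe sets. The part of the ratio in this pattern was not tested further.

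The remaining Grhl2 probe sets were not called. The log2 difference from 3wk to 7wk was -0.28 (SE 0.45) on 1431877_a_at, with a single low array, 4wk C, at 0.272. It was 0.24 (SE 0.89) on 1431878_at, whose ratios ranged from 0.266 to 2.53 and spread widely within every age, and whose level reached 200 units on 2 arrays. No pair of Grhl2 probe sets correlated above 0.383. The mean over all 4, a log2 difference of 0.73 (SE 0.29, adjusted p = 0.149), therefore averages unlike courses.

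Stat5a and Stat5b, the factors that carry the prolactin signal from the receptor to the nucleus, moved little. They are neighbours on chromosome 11, with 0 genes between them in the RefSeq table, and are read from opposite strands. A promoter of each is printed to show a sequence that the pair shares near an annotated start site, with an ETS match in capitals a few bases after it. Both of these start sites lie inside the RefSeq span of their gene, not at the ends where the genes adjoin.
Stat5a promoter, chr11:100860234-100860533, plus strand: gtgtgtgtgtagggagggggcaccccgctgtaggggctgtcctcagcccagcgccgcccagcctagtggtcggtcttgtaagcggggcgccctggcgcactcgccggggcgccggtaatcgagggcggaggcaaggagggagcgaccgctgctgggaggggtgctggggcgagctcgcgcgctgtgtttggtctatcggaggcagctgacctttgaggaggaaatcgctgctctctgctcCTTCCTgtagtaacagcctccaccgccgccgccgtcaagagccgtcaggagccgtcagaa
Stat5b promoter, chr11:100822521-100822820, minus strand: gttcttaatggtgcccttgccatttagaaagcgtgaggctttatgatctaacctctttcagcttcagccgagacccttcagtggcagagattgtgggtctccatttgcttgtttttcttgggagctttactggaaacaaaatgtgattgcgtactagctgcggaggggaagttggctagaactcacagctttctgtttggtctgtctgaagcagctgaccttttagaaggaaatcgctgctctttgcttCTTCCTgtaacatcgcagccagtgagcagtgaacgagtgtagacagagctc

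The longest run that the pair shares without a mismatch is aggaaatcgctgctct, 16 bases, which begins at -32 in the Stat5a promoter and at -23 in that of Stat5b. This pair was chosen as the one with the longest run of the 4 pairs of promoters in the table, and the other pairs share runs of 8, 9 and 11 bases. Each of the 4 Stat5a and Stat5b promoters in the table has 1 match to the ETS letters, which 35.4% of all promoters hold, and none has a STAT match. In the promoters printed the match begins at -10 for Stat5a and at -1 for Stat5b.

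Stat5a probe set 1421469_a_at read 0.711, 1.01 and 0.886 at 3wk, 0.821, 0.612 and 0.921 at 4wk and 1.03 and 1.04 at 5wk. It read 1.19, 1.08 and 1.54 at 6wk and 0.95, 0.993 and 1.16 at 7wk. The 6wk arrays lay above those of 3wk, 4wk and 5wk, and the 3wk and 7wk arrays overlapped. The log2 difference from 3wk to 7wk was 0.26 (SE 0.20, adjusted p = 0.478). On 1450259_a_at it was 0.82 (SE 0.27, adjusted p = 0.0878), with 7wk ratios of 1.25, 1.73 and 1.79 above all 3wk arrays, and it was called without 6wk C, at an adjusted p of 0.0409.

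Stat5b probe set 1422103_a_at had narrow groups, with means of 0.871 ± 0.089 (3wk), 0.894 ± 0.0659 (4wk), 1.04 ± 0.0849 (5wk), 1.23 ± 0.138 (6wk) and 1.11 ± 0.0874 (7wk). It rose by 0.50 from 3wk to 6wk (SE 0.13, adjusted p = 0.0321), a fold of 1.41, and the call was lost without 3wk B, 3wk C, 6wk A or 6wk C, at up to 0.0981. The difference from 3wk to 7wk was 0.35 (SE 0.13, adjusted p = 0.143).

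The other Stat5b probe set, 1422102_a_at, ran against it. Its ratios at 6wk were 0.373, 0.327 and 1.06, and 6wk A and B were the lowest of its 14 values, while 4wk B and 7wk C were the highest at 1.61 and 1.70. The correlation between the Stat5b probe sets was -0.366. The same 2 arrays had the lowest pyruvate carboxylase ratios, -2.78 and -2.50, and the lowest actin 5' to 3' ratios, -0.46 and -0.79. Whether these move together for a shared reason was not tested. The probe set was called in no comparison of all arrays, and without 6wk C it was called in the F test (adjusted p = 0.0301), for 6wk against 3wk (0.0278) and for 7wk against 6wk (0.0301).

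**Figure D3:**
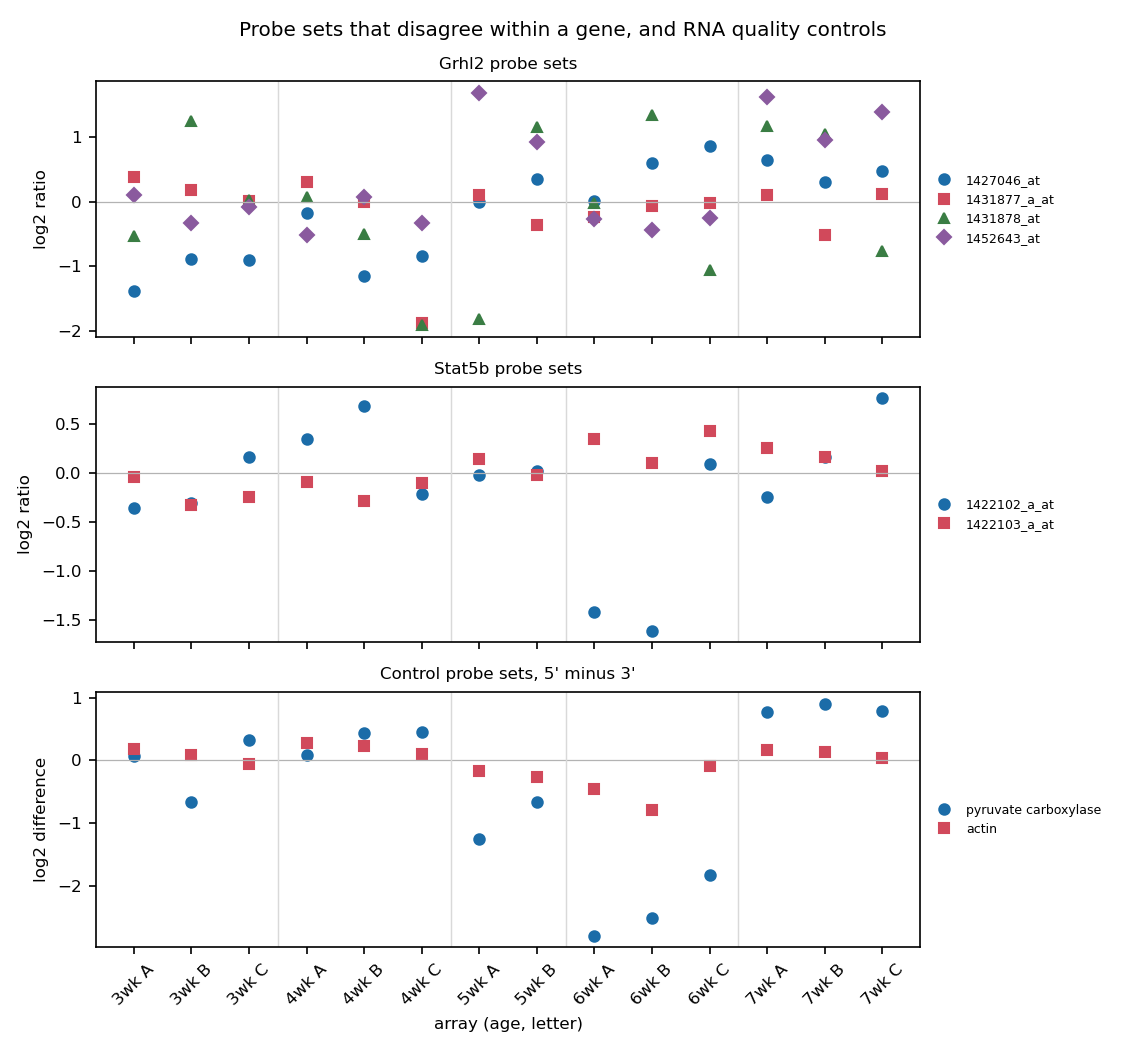
Log2 ratio on each of the 14 arrays for the 4 Grhl2 probe sets (top) and the 2 Stat5b probe sets (middle), above the log2 difference between 5' and 3' control probe sets of pyruvate carboxylase and actin (bottom), 1 point per array. Grhl2 1452643_at is high at 5wk and 7wk, and Stat5b 1422102_a_at is lowest on 6wk A and B, where the pyruvate carboxylase difference is -2.78 and -2.50.

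The balance of the neighbouring genes was compared on each array, as the mean log2 ratio of Stat5a minus that of Stat5b. It was -0.17 ± 0.36 (SD, n = 6) on the 3wk and 4wk arrays and 0.38 ± 0.26 (n = 6) on the 6wk and 7wk arrays. The difference of 0.55 had an exact two-sided permutation p of 0.0108 over 924 arrangements, and the smallest p possible was 0.00216. The late values were all above 0, at 0.739, 0.624 and 0.447 on the 6wk arrays and 0.119, 0.233 and 0.136 on the 7wk arrays. Of the 6 early values 2 were above 0, and that of 3wk B, 0.255, exceeded all 7wk values. The 7wk arrays thus lay within the early range, and the 6wk arrays above it. The result turned on probe set 1422102_a_at of Stat5b: with 1422103_a_at alone the difference was 0.08 (exact permutation p = 0.617) or 0.20 (exact permutation p = 0.381), depending on the Stat5a probe set.

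The members were then set against the general epithelial markers by subtracting, on each array, the mean log2 ratio of the 6 marker genes. That mean went from -2.03 at 3wk to 0.18 at 7wk, so the subtraction shifts every probe set the same way: 95.7% of all probe sets were called in the F test, and from 3wk to 7wk 93.9% were called lower and 0.236% higher. Of the 21 probe sets, 13 were called in the F test, and from 3wk to 7wk 8 were lower and 3 higher. The share of the markers in any difference between genes was not tested.

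On that scale Elf5, Gata3 and Foxa1 were not called for 7wk against 3wk. In the F test over ages Elf5 1419556_at was called (adjusted p = 0.0153), a call lost without 5wk B or 7wk B at up to 0.0963, and the other Elf5 probe set, Gata3 and Foxa1 were not. The relative log2 differences from 3wk to 7wk were 0.66 (SE 0.34) and 0.75 (SE 0.43) for Elf5, 0.55 (SE 0.32) for Gata3 and 0.03 (SE 0.30) for Foxa1. Without 3wk A, Elf5 1419555_at was called, at an adjusted p of 0.00136. Stat5a (-1.94 and -1.38), Stat5b (-1.81 and -1.85) and Elf3 (-1.57) were lower relative to the markers on every probe set, with adjusted p values of 0.00152 or less in limma. As 93.9% of all probe sets were called lower in that comparison, these calls do not set the 3 genes apart.

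The relative rises belonged to Ehf 1419475_a_at (1.32, SE 0.59), Sox9 1424950_at (1.73, SE 0.69) and Tfap2c 1418147_at (1.62, SE 0.51), while the other probe sets of those genes were not called or, for Tfap2c 1448977_at, lower by 0.73 (SE 0.31, adjusted p = 0.0364), a call lost without 3wk A, 7wk A or 7wk C at up to 0.123. The lowest levels of the Sox9 and Tfap2c probe sets that rose were 9 and 22 signal units, so these differences depend on the background at the low end, and the brighter Sox9 1451538_at stood at -0.08 (SE 0.29). The Ehf call was lost in 9 of the 14 fits that left out an array, at an adjusted p of up to 0.239, and that of Sox9 without 3wk B, 7wk A or 7wk C, at up to 0.17. The split depended on the reference: with Epcam and Cdh1 alone 14 probe sets were lower and 0 higher, and with Krt5 and Krt14 added 6 were lower and 6 higher. The 2 uncalled Grhl2 probe sets of the deposited scale were lower by 2.48 and 1.96, the latter lost without 3wk A, 3wk B or 7wk C at up to 0.156, and without 7wk C the count of 11 calls became 7.

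Other genes of the same families mostly did not pass the test, and their counts are given from a fit of 10759 genes in which 7.05% rose and 2.93% fell from 3wk to 7wk. Of 17 other ETS genes tested, 2 rose, Elf1 by 1.18 (SE 0.22) and Ets2 by 0.82 (SE 0.14), and the median difference was 0.13 against 0.09 over all genes. Spdef, an ETS factor of secretory epithelia, stood at 1.76 (SE 0.56) with an adjusted p of 0.0749. None of the 5 other GATA genes was called by limma, and none had an unadjusted p under 0.05, with differences between -0.23 and 0.39. Neither Foxa2 (-0.51, SE 0.28) nor Foxa3 (-0.17, SE 0.22) was called.

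Of the 3 other STAT genes tested, none was called and 1 had an unadjusted p under 0.05, and Stat3, which drives involution after lactation, stood at 0.15 (SE 0.13). In the SOX family 2 of 12 rose, Sox10 by 1.13 (SE 0.27) and Sox13 by 0.74 (SE 0.20), and Sox7, a factor of blood vessel cells, fell by 0.65 (SE 0.18). Tfcp2l1 of the grainyhead family rose by 1.70 (SE 0.23), and Grhl1 stood at 1.14 (SE 0.37) with an adjusted p of 0.0789. Both other AP-2 genes tested rose, Tfap2a by 0.87 (SE 0.16) and Tfap2b by 2.20 (SE 0.62, adjusted p = 0.0467).

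**Figure D4:**
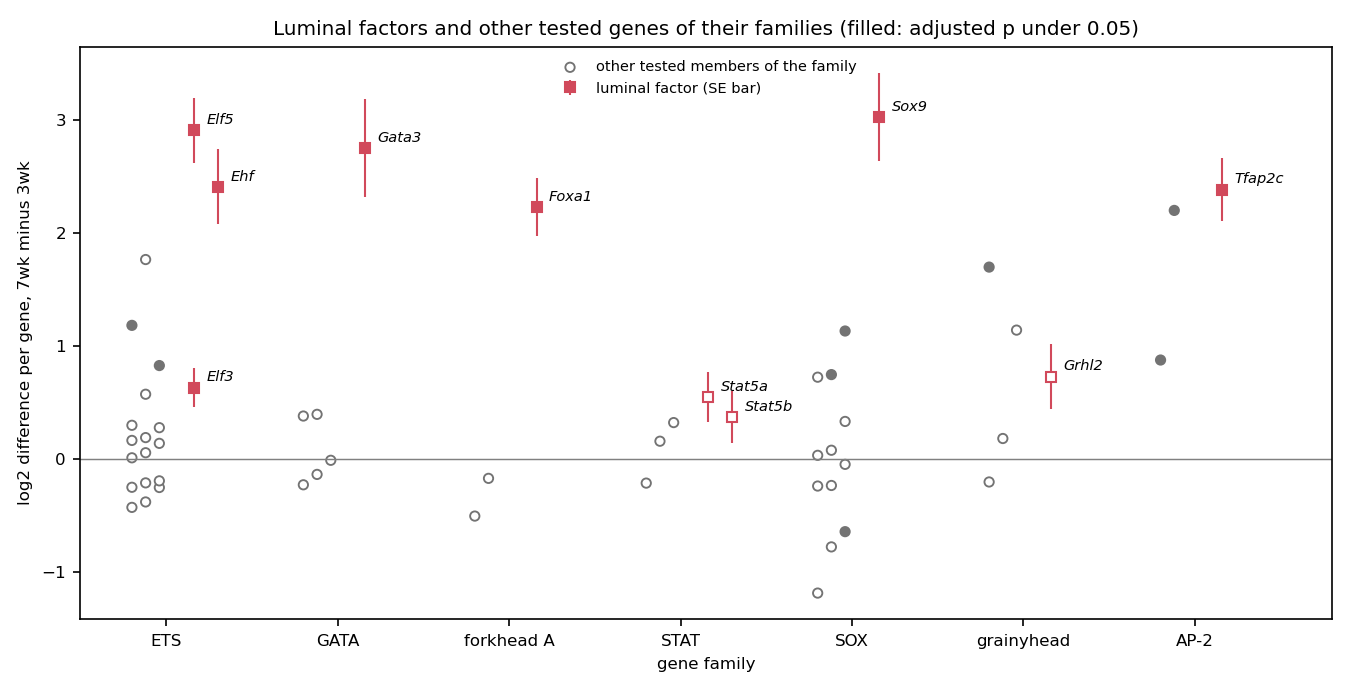
Log2 difference per gene (mean of its probe sets) of 7wk minus 3wk for the 10 luminal factors (red squares with SE bars) and the other tested genes of their families (grey circles), filled where the adjusted p is under 0.05. Elf5, Ehf, Gata3, Foxa1, Sox9 and Tfap2c lie above every other tested gene of their families, with Sox9 at 3.03 and Tfap2c, at 2.38, close to Tfap2b at 2.20. Stat5a (0.54) and Stat5b (0.37), both unfilled, lie just above the highest other STAT gene, Stat6 (0.32). Elf3 and Grhl2 lie below other genes of their families.

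Genes known to work with or under these factors were counted in the same fit. Of 13 milk and alveolar genes that Stat5 and Elf5 are known to act on, 7 rose and 1, Cidea, which brown fat also makes, fell by 1.43. Csn1s1 and Csn2, which encode caseins, rose by 6.70 (SE 0.58) and 6.22 (SE 0.55), and Mfge8, a milk fat globule protein, by 1.82 (SE 0.16). Wap, a whey protein gene, stood at -0.32 (SE 0.28, adjusted p = 0.54). Among 11 genes of prolactin and Stat5 signalling, none rose, 2 with an unadjusted p under 0.05 in that direction, and 2 fell, Prl by 1.80 (SE 0.44) and Bcl6, a repressor that competes for Stat5 sites, by 1.06 (SE 0.24). Socs2 and Cish, feedback inhibitors induced by Stat5, stood at 0.54 (SE 0.20) and -0.12 (SE 0.21), neither called for 7wk against 3wk. In the F test over ages, which called 10.7% of genes, Socs2 was called (adjusted p = 0.0404) and Cish was not.

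Of 11 hormone-sensing genes, a list that holds Foxa1 itself, 5 rose, among them Wnt4, a relay of the progesterone signal, by 3.12 (SE 0.68), Stc2 by 2.56 (SE 0.17) and Cited1, a cofactor of the oestrogen receptor, by 1.69 (SE 0.35). The receptors themselves, Esr1 at 0.32 (SE 0.68) and Pgr at 1.02 (SE 0.50), were not called. Of 15 luminal progenitor and alveolar genes, 10 rose, with Cxcl15 at 3.47 (SE 0.30), Lcn2 at 2.52 (SE 0.19) and Ltf at 2.35 (SE 0.27). Of 16 junction genes known as Grhl2 targets, 15 rose, with a median of 1.89 over the 16, where 7.05% of all genes rose. That list holds Cdh1 and Epcam, which are also epithelial markers, and all 6 epithelial markers rose, with a median of 2.17. The Grhl2 probe sets disagreed, and a part of Grhl2 in the rise was not tested.

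For comparison, 2 of 13 basal lineage factors rose, Id4 by 1.06 (SE 0.23) and Sox10, and Trp63 stood at 0.54 (SE 0.40). Of the 8 basal and myoepithelial markers, 4 rose, with Cnn1 at 2.74 (SE 0.30) and Krt14 at 1.43 (SE 0.21). The 6 white adipocyte markers tested held 3 that fell, and none of the 7 lymphocyte, 5 skeletal muscle and 3 skin keratinocyte markers tested was called, with 1 unadjusted p under 0.05 among them. Of 7 fibroblast markers Fbln1 rose by 0.66 and Col1a2 fell by 0.48, of 7 endothelial markers Vwf rose by 0.95, and of 7 macrophage markers Cd163 fell by 0.67. The mean lymphocyte marker log2 ratio varied within ages, from -0.07 to 1.48 at 7wk. The difference between the luminal factors and these lists was not tested.

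For each member, taken as the mean of its probe sets, the 3 genes whose ratios ran most like its own over the 14 arrays were found, as a description. Elf5 was most like Mmp2, which encodes a matrix protease (r = 0.988), then Prom2 (0.973) and Lcn2 (0.968). Gata3 was most like Tspan1 (0.973), Ptn (0.972) and Krt18 (0.966), and Foxa1 like Wfdc2 (0.986), Cldn10 (0.982) and Ptn (0.978). Tfap2c was most like Stc2 (0.976), Cdh1 and Fxyd3 (both 0.974), Sox9 like Ptprf (0.941), Klc3 (0.939) and Cdh1 (0.937), and Ehf like Tgfb3 (0.956).

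The nearest genes to the other members were less alike. They were Ica1 (0.925) for Elf3, Dennd6a (0.935) for Stat5a, Krba1 (0.9) for Grhl2 and Abhd6 (0.855) for Stat5b. Among the members themselves, each taken as the mean of its probe sets, Stat5b correlated with none of the other 9 above 0.325. The Stat5b mean averages probe sets that ran against each other, with a correlation of -0.366. Elf5, Gata3, Foxa1, Ehf, Sox9 and Tfap2c correlated with each other between 0.838 and 0.944. All these correlations come from arrays that share the difference between early and late ages.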

How the data were processed

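RNA from 14 pools was measured on Affymetrix arrays. The deposited table holds linear ratios: a test on the values showed that 98.48% of 22690 probe sets have a median of 1 within 0.001, so each had been divided by its own median, while 337 have a median below 0.98, as a minimum divisor would leave. The signal software, its scaling and the build: not given in the sources used here. Weak probe sets hold whole multiples of a signal unit of each array, from which levels were recovered for 9564 probe sets (42.15%), 6 of the 21 member probe sets among them. Left out were 64 control probe sets and 3961 with a recovered level below 200 units on all arrays or all but 1. All 21 member probe sets passed, 3 of them through 2 or 3 arrays.

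Log2 ratios, with no offset, were fitted in limma 3.58.1 (R 4.3.3) with age as a factor and Benjamini-Hochberg adjustment within each comparison over 18665 probe sets, two-sided. Array medians differed by at most 0.0938, so no normalization was added. Genes are means of their probe sets. The fit was tested on simulated data. Named genes are all members, the 3 most alike for each, and up to 4 genes of each list ranked by adjusted p in the F test. Wap, Cidea, Esr1, Pgr and Trp63 lie outside that rule for the lists they stand beside and were added after their values were seen. The labels do not say whether the replicate letters pair the arrays, and the main fit took the arrays as unpaired. The number of arrays limits the precision. The members, lists and tests were chosen with earlier results of these data known. Alternatives changed the filter, normalization, offset, weights, variance prior, replicate block, arrays, quality covariates and reference. Promoters came from RefSeq (GRCm38.p6). Tables used Python 3.11.15, pandas 2.3.3, scipy 1.17.1 and matplotlib 3.10.9.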

Additional observations from a re-analysis of the deposited data

How the results depend on the processing

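Of 3801 values of single probe sets under the alternatives, 3643 kept their direction and their side of the threshold, 141 fell below it, 17 passed it, and 0 reversed with a call. The counts of called member probe sets for neighbouring ages were fragile. The 1 call for 4wk against 3wk became 0 without the filter, with quantile normalization, centring, an offset, gene means, the replicate block, actin, spike or pyruvate carboxylase covariates, or without 6wk A and B. The 2 calls for 5wk against 4wk became 0 with gene means, the block or any of those covariates, and 1 without 6wk A and B or with the mean level filter. The 1 call for 6wk against 5wk became 0 without the filter, with quantile normalization, gene means, the block, the actin or pyruvate carboxylase covariate, the mean level filter, or without 6wk A and B. That call was Grhl2 1452643_at, whose difference of -1.62 lay between -1.63 and -1.52 in the probe set fits that lost it, and the mean level filter removed the probe set. That for 7wk against 6wk became 0 with gene means, any covariate, the mean level filter, or without 6wk A and B. The 14 calls for 6wk against 3wk became 9 with the actin and 0 with the pyruvate carboxylase covariate, and the 14 for 7wk against 3wk became 7 with the spike and 5 with the pyruvate carboxylase covariate. The cause was not tested.

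Leaving out 1 array gave 0 to 1 (4wk against 3wk), 0 to 3 (5wk against 4wk), 0 to 1 (6wk against 5wk), 0 to 2 (7wk against 6wk) and 7 to 12 (relative to the markers, 7wk against 3wk) called members. With the replicate block, letter A, B or C, the F test called 15, 6wk against 3wk 14 and 7wk against 3wk 15. Same-letter arrays correlated between -0.07 and 0.07 in their deviations (median 0.012), and different-letter arrays between -0.12 and 0.09 (median -0.012). Of the 14 arrays, 8 correlated best with their own letter, which leaves pairing undecided. For the difference between Stat5a and Stat5b, permuting within the letter as a block gave an exact p of 0.0185. By single probe sets it was 0.911 (exact permutation p = 0.0823) and 1.03 (0.00649) against Stat5b 1422102_a_at, and 0.077 and 0.195 against 1422103_a_at.

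Over all probe sets, 7wk against 3wk called 1576, but 351 with the spike and 309 with the pyruvate carboxylase covariate. For 6wk against 3wk it was 2517, against 563 with actin and 737 without 6wk A and B, and for the F test 1894, against 847 with actin, 1003 with spikes, 851 with pyruvate carboxylase and 995 without 6wk A and B. Quantile normalization moved the share of higher calls from 69.7% to 55.8% for 7wk against 3wk and from 84.9% to 69.8% for 7wk against 6wk.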
